A study of Rattus norvegicus with 6 samples.

Results

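Complex II (succinate dehydrogenase), complex III (the cytochrome bc1 complex), cytochrome c and the mitochondrial ATP synthase were followed here as 1 set of nuclear genes, together with the dedicated assembly factors of these enzymes. Members were the genes whose symbol begins with Sdhaf, Uqcr, Uqcc, Atp5 or Atpaf, or is Sdha, Sdhb, Sdhc, Sdhd, Bcs1l, Cyc1 or Cycs, and that had a probe set paired with no other gene symbol. This gave 38 genes of the 14506 genes measured, carried by 46 probe sets, and each gene was represented by the probe set with the highest mean over the 6 samples. Cyc1, Uqcr10, Uqcc1, Uqcc5, Sdhaf4, Atp5mf, Atp5mj and the genes of the mitochondrial genome were not analysed here.

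The samples were primary ventricular cardiomyocytes of 2-day-old Sprague-Dawley rats, kept in serum-free medium and given hCT1 (recombinant human cardiotrophin 1, a cytokine of the interleukin-6 family that signals through gp130) at 0.5 nM for 24 h (hCT1, n = 3) or control serum-free medium for 24 h (control, n = 3). The growth label of all 6 samples, controls included, also names a hypertrophic agonist in the medium, whereas the treatment label names control serum-free medium for the controls. Non-muscle cells had been reduced by repeated pre-plating and not by a sort, so cell type markers are given beside the results. RNA was isolated in triplicate, but no source used here states whether the 3 RNA samples of a group came from different cultures. The p-values therefore cover the spread among these samples alone, and that spread may be technical. Values are log2 signals from 1 Affymetrix array per sample after robust multi-array averaging (RMA) and every difference is hCT1 minus control. In such bulk samples, fewer cells of a type and less RNA per cell cannot be told apart.

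These enzymes form the centre and the end of oxidative phosphorylation. Complex II oxidises succinate in the tricarboxylic acid cycle and hands the electrons to coenzyme Q, complex III passes them from reduced coenzyme Q to cytochrome c while pumping protons, and the ATP synthase lets the protons back through its membrane ring of c subunits, turning a central stalk inside the F1 head that makes ATP. Heart muscle depends on this route for most of its ATP, and its mitochondria are packed with cristae on which the ATP synthase sits in rows of dimers.

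Of the 38 members, 14 fell with hCT1, 0 rose and 24 did not pass the test (limma, adjusted p under 0.05 over 15310 probe sets). The members that fell were 36.8% of the set, beside 9.84% of all probe sets tested that were called lower and 4.98% that were called higher. After a further quantile normalization 1148 probe sets were lower and 917 were higher, so that 55.6% of all calls were lower against 66.4% on the deposited values, and 11 members were then lower. The difference was negative in 34 members and positive in 4, from -0.58 for Atp5po to 0.03 for Sdhaf2, with a median of -0.17, where the median over all genes was 0. In 27 members every hCT1 sample lay below every control sample, in 0 members every hCT1 sample lay above, and in 11 the groups overlapped. Over all probe sets tested, 20.5% had every hCT1 sample below every control sample and 13.9% had every hCT1 sample above.

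The falls were found in every enzyme of the set and in its assembly factors, but not in every part of each enzyme. They comprised 2 of 4 complex II subunits, 2 of 7 complex III subunits, 7 of 15 ATP synthase subunits and 3 of 10 assembly factors, whereas cytochrome c and the ATP synthase inhibitor did not pass. Leaving out 1 sample at a time, 6 members fell without control 1, 6 without control 2 and 12 without control 3. Without hCT1 1 the number was 6, without hCT1 2 it was 7 and without hCT1 3 it was 7. Of the 12, 9 were among the 14, and Atp5f1e, Sdhd and Uqcr11 were added. Over all probe sets tested the lower calls, in the same order, were 803, 825, 1810, 891, 814 and 998, against 1506 with all samples. The genes Atp5po, Atp5mg, Atp5me, Atp5mc1, Sdhb and Uqcc2 passed in all 6 of these fits, and they were also the 6 members with an adjusted p under 0.01. The median difference of the set lay between -0.184 and -0.158 in these fits.

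**Figure D1:**
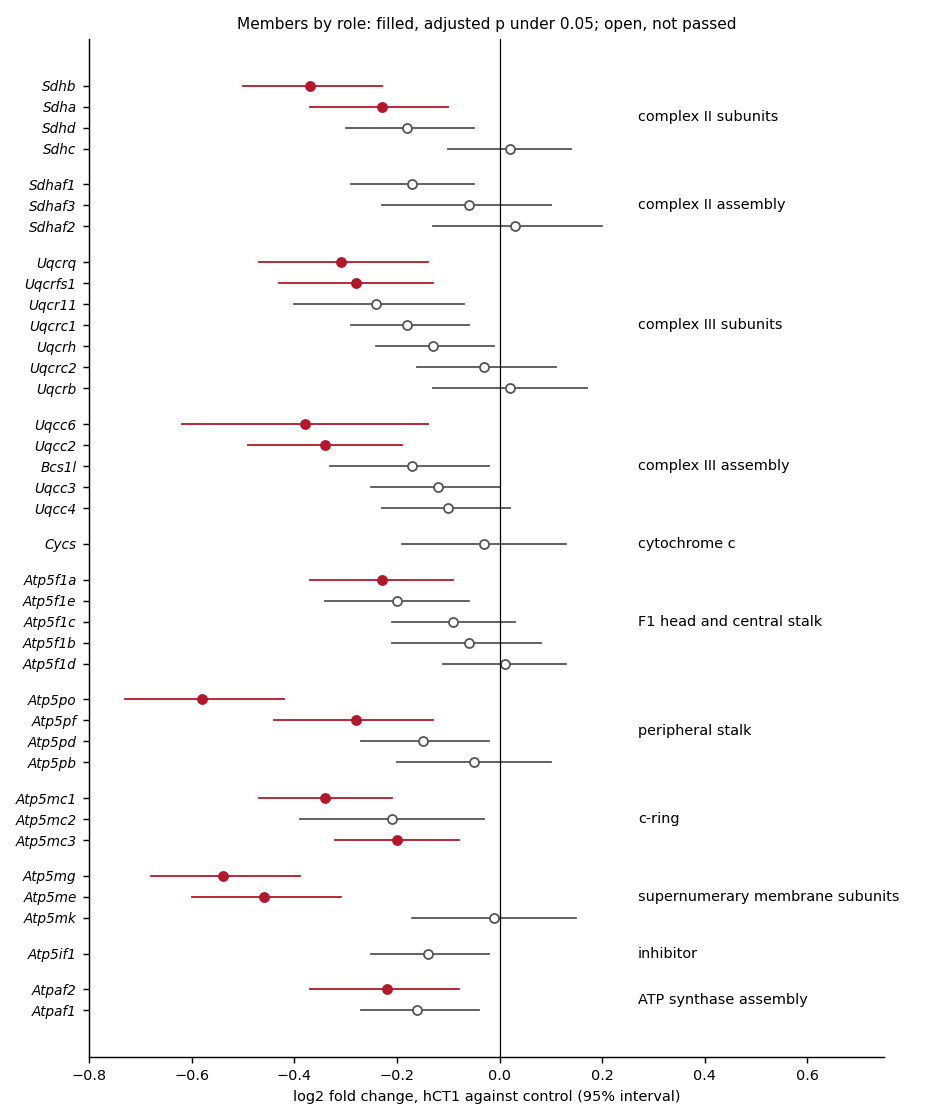
Difference in log2 RMA value, hCT1 minus control, of each of the 38 members, grouped by role; points are the fitted differences, lines their 95% intervals from limma (n = 3 per group), filled points passed at an adjusted p under 0.05 and open points did not. The 14 filled points lie between -0.58 and -0.20, and in several role groups they stand beside members near 0 such as Sdhc, Uqcrb, Atp5f1d and Atp5mk.

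The promoters of the 4 members with the largest moderated t statistic, Atp5mg, Atp5po, Atp5me and Sdhb, are shown because these genes fell furthest beyond their spread. Each line gives the 250 bases before the annotated start of the gene, 5′ to 3′ on the strand of the gene, from RefSeq on build GRCr8, with capitals marking matches on either strand to the motifs counted in the next paragraph.
Atp5mg (chr8:54130408-54130657, minus strand): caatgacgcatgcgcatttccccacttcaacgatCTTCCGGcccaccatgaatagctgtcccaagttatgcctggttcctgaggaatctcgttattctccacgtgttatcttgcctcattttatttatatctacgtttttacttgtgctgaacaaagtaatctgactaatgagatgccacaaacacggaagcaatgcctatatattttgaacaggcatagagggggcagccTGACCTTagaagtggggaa
Atp5po (chr11:44657484-44657733, minus strand): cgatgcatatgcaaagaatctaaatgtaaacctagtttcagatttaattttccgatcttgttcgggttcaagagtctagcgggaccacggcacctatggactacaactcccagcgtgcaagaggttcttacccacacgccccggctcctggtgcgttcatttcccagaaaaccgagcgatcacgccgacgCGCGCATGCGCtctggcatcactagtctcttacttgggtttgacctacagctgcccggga
Atp5me (chr14:1464610-1464859, plus strand): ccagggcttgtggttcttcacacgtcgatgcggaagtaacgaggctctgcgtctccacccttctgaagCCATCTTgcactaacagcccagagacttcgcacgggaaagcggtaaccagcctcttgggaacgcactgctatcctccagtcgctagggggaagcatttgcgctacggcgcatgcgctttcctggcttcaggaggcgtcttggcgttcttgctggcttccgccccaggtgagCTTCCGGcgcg
Sdhb (chr5:158547684-158547933, plus strand): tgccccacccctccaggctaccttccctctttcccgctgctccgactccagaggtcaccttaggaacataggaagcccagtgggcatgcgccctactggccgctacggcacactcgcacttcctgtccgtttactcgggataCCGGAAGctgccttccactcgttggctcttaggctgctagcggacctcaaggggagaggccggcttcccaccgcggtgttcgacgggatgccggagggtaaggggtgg

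Windows of 300 bases, from 250 before to 50 after the start, were listed for 35 of the 38 members and for 27457 genes in all, and not for Atp5pd, Uqcr11 and Uqcrb. Both strands were searched for CCGGAAG (an ETS/GABP type of site), AAGATGG (YY1), AAGGTCA (the half-site read by ERR receptors), its longer form TCAAGGTCA, which contains it, and the palindromic NRF-1 motif. CCGGAAG was present in 14 member windows (40%) and in 9.22% of all promoters. AAGATGG was present in 8 (22.9%, against 7.3% of all promoters), AAGGTCA in 6 (17.1% against 4.37%), TCAAGGTCA in 2 (5.71% against 0.412%) and the NRF-1 motif in 4 (11.4% against 1.98%). Member windows were also richer in G and C, with a median of 59.3% against 52.3% and a median of 21 CG dinucleotides against 7, and the part of base composition in these shares was not tested. The members that fell and those that did not were both represented among the matches. CCGGAAG stood in 6 of 14 windows of members that fell (42.9%) and in 8 of 21 of the others (38.1%). AAGATGG stood in 5 and 3 (35.7% and 14.3%) and AAGGTCA in 4 and 2 (28.6% and 9.52%). TCAAGGTCA stood in 1 and 1 (7.14% and 4.76%), and the NRF-1 motif in 2 and 2 (14.3% and 9.52%). Differences between these shares were not tested. In the printed sequences the leftmost base of CCGGAAG lay at -11 from the start of Atp5me, at -108 from that of Sdhb and at -216 from that of Atp5mg, and the NRF-1 motif lay at -60 from the start of Atp5po. These matches are letters in a window and no binding was measured.

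In complex II the catalytic, matrix-facing subunits fell and 1 of the membrane anchors gave a difference near 0. Sdhb, the iron-sulfur subunit, read 9.76, 9.68 and 9.60 in the controls and 9.31, 9.35 and 9.27 with hCT1. It fell by 0.37 on the log2 scale (SE 0.06, adjusted p = 0.00444), a decrease of 22.5% on the linear scale, and its lowest control stood 0.25 above its highest hCT1 sample. Sdha, the flavoprotein that binds succinate, read 9.97, 9.91 and 10.04 in the controls and 9.76, 9.78 and 9.68 with hCT1. Sdha fell by 0.23 (SE 0.06, adjusted p = 0.0315) with groups 0.13 apart, but it passed in 0 of the 6 fits that left out 1 sample. The anchors Sdhc and Sdhd hold the enzyme in the inner membrane and bind coenzyme Q with Sdhb. Sdhd differed by -0.18 (adjusted p = 0.062) with every hCT1 sample below every control, whereas Sdhc read 11.48, 11.52 and 11.46 in the controls and 11.48, 11.51 and 11.53 with hCT1. The difference of Sdhc was 0.02 with a 95% interval of -0.10 to 0.14, which leaves out a fall of the size of that of Sdhb.

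The log2 difference between Sdhb and Sdhc was taken within each sample and centred on its control mean, since signals of different probe sets cannot be set against each other, and differences between members are given in this way throughout. For Sdhb and Sdhc these centred values were 0.09, -0.03 and -0.05 in the controls and -0.37, -0.35 and -0.45 with hCT1, a change of -0.39 with no overlap. That between Sdha and Sdhc changed by -0.25, also with no overlap. These pairs are among 9 pairs of subunits of the same enzyme that were picked with their values known, and they are given without a test. The complex II assembly factors did not pass. Sdhaf1, which assists the insertion of iron-sulfur clusters into Sdhb, had the largest moderated t of the 3, reading 8.52, 8.54 and 8.48 in the controls and 8.36, 8.31 and 8.36 with hCT1 (difference -0.17, SE 0.05, adjusted p = 0.0627, groups 0.12 apart). Sdhaf3, which works with it, differed by -0.06 and Sdhaf2, which helps attach the flavin to Sdha, by 0.03, both with overlapping groups.

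In complex III the Rieske protein and a small supernumerary subunit fell. Uqcrfs1, the Rieske iron-sulfur protein that carries electrons towards cytochrome c1, read 9.24, 9.22 and 9.04 in the controls and 8.89, 8.86 and 8.90 with hCT1, a fall by 0.28 (SE 0.07, adjusted p = 0.0214). Uqcrq, a small subunit close to cytochrome b, read 10.90, 10.74 and 10.66 in the controls and 10.43, 10.39 and 10.54 with hCT1, a fall by 0.31 (SE 0.07, adjusted p = 0.025). Control 3 was the lowest control of both genes, and the groups stood 0.14 and 0.12 apart. The number of complex III subunits that fell was 2 on all samples and ran from 0 to 3 when 1 sample was left out. Of the 6 fits, Uqcrfs1 passed only in the fit without control 3, and Uqcrq only in those without control 3 or without hCT1 3.

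The other complex III subunits did not pass, and they spread from differences like those of the called subunits to differences near 0. Uqcr11, the smallest of the subunits, differed by -0.24 (adjusted p = 0.0596), the core protein Uqcrc1 by -0.18 (adjusted p = 0.051) and the hinge protein Uqcrh, which helps cytochrome c bind, by -0.13 (adjusted p = 0.142), each with every hCT1 sample below every control. The second core protein Uqcrc2 differed by -0.03 (95% interval -0.16 to 0.11) and Uqcrb, which binds next to cytochrome b, by 0.02 (95% interval -0.13 to 0.17), both with overlapping groups. The signs of the differences of Uqcrc2 and Uqcrb turned in some of the fits that left out 1 sample. The log2 difference between Uqcrfs1 and Uqcrc2 within a sample changed by -0.25, with overlap between the groups.

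All 5 complex III assembly factors among the members had every hCT1 sample below every control sample, and 2 of them fell. Uqcc2, which joins newly made cytochrome b, read 9.72, 9.58 and 9.57 in the controls and 9.34, 9.19 and 9.30 with hCT1, a fall by 0.34 (SE 0.07, adjusted p = 0.00974). A second probe set of Uqcc2 gave a fall by 0.32 (SE 0.06, adjusted p = 0.00881). Uqcc6, a small inner membrane protein also called Brawnin, read 7.17, 7.25 and 6.82 in the controls and 6.58, 6.74 and 6.77 with hCT1. Its groups were only 0.05 apart, with control 3 lying far below the other controls, and its fall by 0.38 (SE 0.11, adjusted p = 0.0425) passed only without control 3 among the fits that left out 1 sample. Its control SD of 0.23 was the widest of any member. Bcs1l, the AAA protein that moves the Rieske protein across the membrane, differed by -0.17 (adjusted p = 0.132), Uqcc3 by -0.12 (adjusted p = 0.167) and Uqcc4 by -0.10 (adjusted p = 0.252).

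Cytochrome c, which shuttles electrons from complex III to cytochrome oxidase, did not pass. Cycs read 10.98, 11.00 and 11.04 in the controls and 10.86, 11.11 and 10.96 with hCT1. The samples of both groups were interleaved, and the difference was -0.03 (95% interval -0.19 to 0.13, adjusted p = 0.794). A second probe set gave -0.07, also with overlapping groups.

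**Figure D2:**
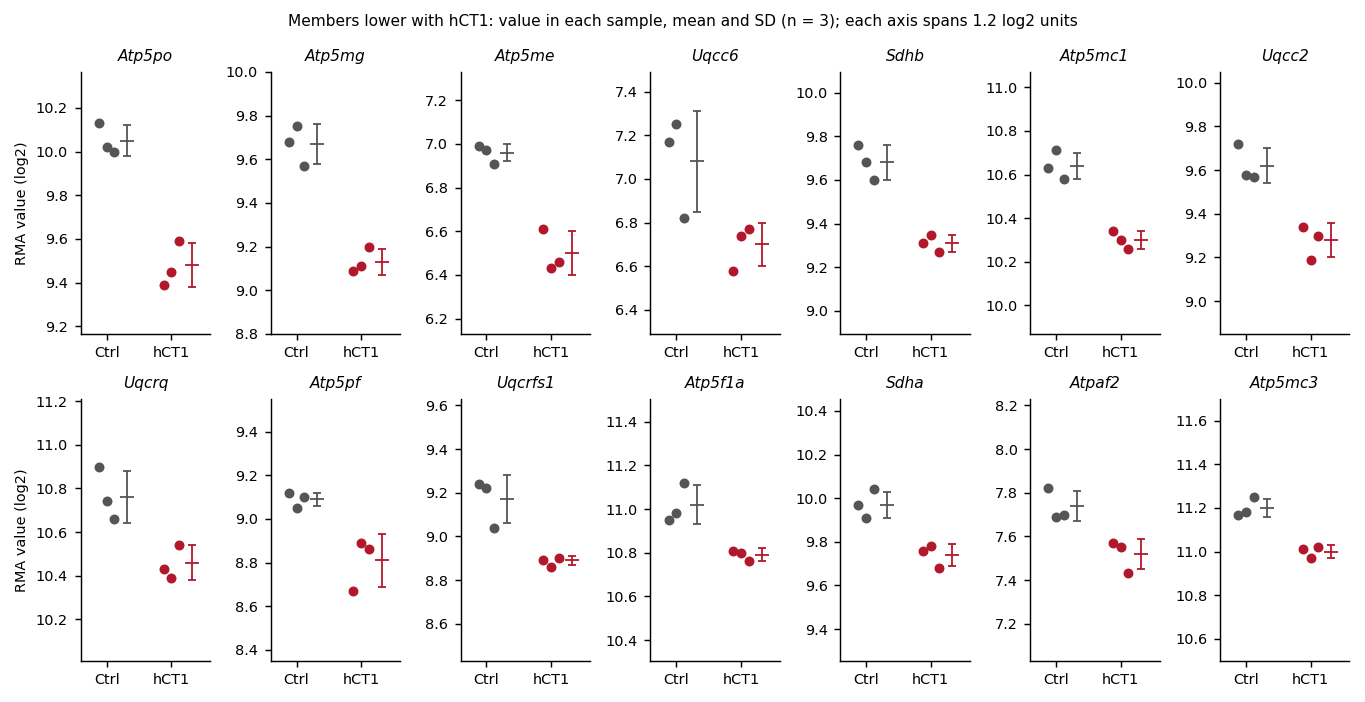
Log2 RMA value of the 14 members that fell, 1 panel per gene in order of the size of the fall; points are the 3 control and the 3 hCT1 samples, and the bars beside them are the mean and SD (n = 3). In each panel every hCT1 sample lies below every control sample, by 0.41 for Atp5po and by 0.05 for Uqcc6, whose control 3 lies near the hCT1 samples.

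In the ATP synthase the peripheral stalk and the membrane part held the largest falls of the whole set. The peripheral stalk holds the F1 head still against the turning rotor, and Atp5po (the oligomycin sensitivity conferring protein, OSCP) joins it to the top of the head. Atp5po read 10.13, 10.02 and 10.00 in the controls and 9.39, 9.45 and 9.59 with hCT1, a fall by 0.58 (SE 0.07, adjusted p = 0.000908) or 32.9% on the linear scale. Atp5pf, the coupling factor 6 of the stalk, read 9.12, 9.05 and 9.10 in the controls and 8.67, 8.89 and 8.86 with hCT1, a fall by 0.28 (SE 0.07, adjusted p = 0.0266) that passed only without hCT1 2 among the fits that left out 1 sample. The long b subunit Atp5pb differed by -0.05 (95% interval -0.20 to 0.10) with overlapping groups. Centred on its control mean, the log2 difference between Atp5po and Atp5pb was 0.13, 0.02 and -0.15 in the controls and -0.66, -0.59 and -0.33 with hCT1, a change of -0.53 with no overlap.

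The stalk subunit d, Atp5pd, depended on the probe set. Its brighter probe set, which stands for the gene here, differed by -0.15 (SE 0.06, adjusted p = 0.118), with every hCT1 sample below every control. Its other probe set read 9.51, 9.48 and 9.54 in the controls and 9.12, 9.14 and 9.17 with hCT1, a fall by 0.36 (SE 0.05, adjusted p = 0.00245). With that probe set in its place the set would hold 15 members that fell, an alternative chosen after the values were seen. The other members with several probe sets kept their call, except that the second probe set of Atp5mc3 differed by -0.10 and did not pass. The probe sets of Uqcrb and those of Atp5mk followed each other sample by sample, with hCT1 2 highest of the hCT1 samples on each.

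**Figure D3:**
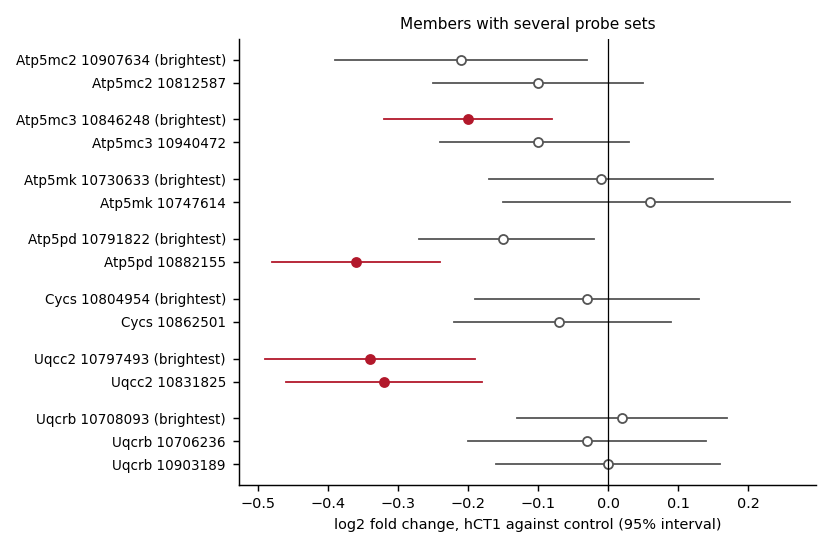
Difference in log2 RMA value, hCT1 minus control, with its 95% interval (n = 3 per group) for each probe set of the 7 members that have several, labelled with the array's probe set number; filled points passed and open points did not. The probe sets of Uqcc2 lie together at -0.34 and -0.32, while those of Atp5pd lie at -0.15 and -0.36.

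Among the small membrane subunits, which help to bend the cristae and hold the ATP synthase dimers together, Atp5mg and Atp5me fell. Atp5mg (subunit g) read 9.68, 9.75 and 9.57 in the controls and 9.09, 9.11 and 9.20 with hCT1, a fall by 0.54 (SE 0.06, adjusted p = 0.000907) or 31.0% on the linear scale. Atp5me (subunit e) read 6.99, 6.97 and 6.91 in the controls and 6.61, 6.43 and 6.46 with hCT1, a fall by 0.46 (SE 0.06, adjusted p = 0.00218) or 27.1%. These subunits bind each other, and their groups stood 0.38 and 0.30 apart. Atp5mk (DAPIT), the other subunit of this group that was measured, differed by -0.01 (95% interval -0.17 to 0.15) with overlapping groups.

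The 3 c-ring genes Atp5mc1, Atp5mc2 and Atp5mc3 encode the same mature c subunit behind different import sequences, and their differences were all negative. Atp5mc1 read 10.63, 10.71 and 10.58 in the controls and 10.34, 10.30 and 10.26 with hCT1, a fall by 0.34 (SE 0.06, adjusted p = 0.00525). Atp5mc3 read 11.17, 11.18 and 11.25 in the controls and 11.01, 10.97 and 11.02 with hCT1, a fall by 0.20 (SE 0.05, adjusted p = 0.0363) that passed in 0 of the 6 fits that left out 1 sample. Atp5mc2 read 11.78, 11.68 and 11.56 in the controls and 11.49, 11.34 and 11.56 with hCT1, so that its groups met at control 3 and hCT1 3, and its difference of -0.21 (SE 0.08) did not pass (adjusted p = 0.107). No order among the 3 could be read: the log2 difference between Atp5mc1 and Atp5mc2 changed by -0.13, that between Atp5mc1 and Atp5mc3 by -0.14 and that between Atp5mc3 and Atp5mc2 by 0.01, each with overlapping groups.

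In the F1 head only the alpha subunit fell, and the catalytic beta subunit did not pass. Atp5f1a (alpha) read 10.95, 10.98 and 11.12 in the controls and 10.81, 10.80 and 10.76 with hCT1, a fall by 0.23 (SE 0.06, adjusted p = 0.0376) that passed in 0 of the 6 fits that left out 1 sample. Atp5f1b (beta), which carries the catalytic sites, differed by -0.06 (95% interval -0.21 to 0.08). Centred on its control mean, the log2 difference between the alpha and beta genes was 0.02, -0.03 and 0.01 in the controls and -0.15, -0.21 and -0.14 with hCT1, a change of -0.17 with no overlap. In the central stalk, which turns inside the head, Atp5f1c (gamma) differed by -0.09, Atp5f1e (epsilon) by -0.20 (adjusted p = 0.0627) and Atp5f1d (delta) by 0.01 (95% interval -0.11 to 0.13). Every hCT1 sample lay below every control for gamma and epsilon, and the groups overlapped for delta. The log2 difference between Atp5f1a and Atp5f1d changed by -0.24 with no overlap.

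Atp5if1, the peptide that blocks the enzyme from running backwards and splitting ATP, read 11.21, 11.23 and 11.26 in the controls and 11.12, 11.08 and 11.09 with hCT1. The groups did not overlap, and the difference was -0.14 (SE 0.05, adjusted p = 0.114). Of the F1 assembly factors, Atpaf2, which holds alpha subunits until they are built in, read 7.82, 7.69 and 7.70 in the controls and 7.57, 7.55 and 7.43 with hCT1, a fall by 0.22 (SE 0.06, adjusted p = 0.0486) that passed in 0 of the 6 fits that left out 1 sample. Atpaf1, which does the same for beta subunits, differed by -0.16 (SE 0.05, adjusted p = 0.082) with every hCT1 sample below every control.

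**Figure D4:**
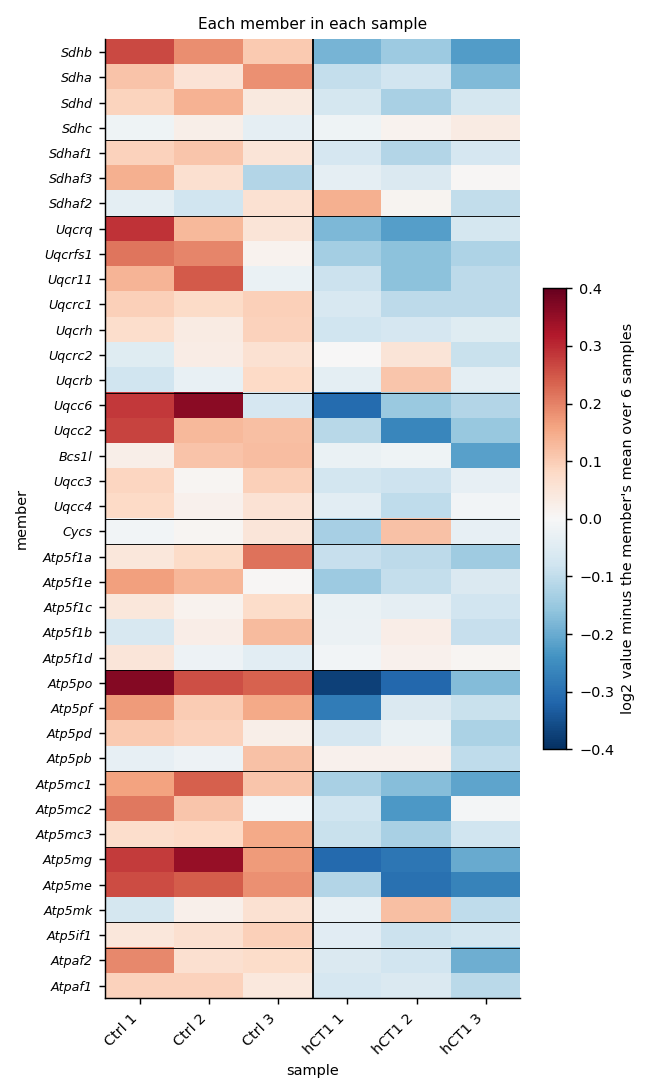
Log2 RMA value of each member in each of the 6 samples minus that member's mean over the samples, with members in rows grouped by role (thin lines) and the control and hCT1 samples on either side of the thick line; red is above and blue below the member's mean. The median over the 38 members is 0.09, 0.08 and 0.07 in the controls and -0.07, -0.08 and -0.10 with hCT1, and rows such as Sdhc, Sdhaf2, Uqcrb and Atp5mk break the pattern.

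The shift was seen in each sample of both groups. The median deviation of the 38 members from their own means was 0.09, 0.08 and 0.07 in the controls and -0.07, -0.08 and -0.10 with hCT1, while the same median over all 14506 genes stayed between -0.022 and 0.016. The array medians over all 29215 probe sets lay between 5.50 and 5.58, and the median over all probe sets differed by -0.02. When each array was centred on its median, 10 members were lower. The members' spread within a group was small, with a median SD of 0.06 in the controls and 0.05 with hCT1 beside 0.08 and 0.07 over all genes. The probe sets used lay at percentiles from 62.6 to 99.8 of the mean signals of all 29215 probe sets. The median percentile was 91.3 for the members that fell and 96.4 for the others, where that of all genes was 61.2. Most members were thus bright, but Atp5me (62.6) and Uqcc6 (64.4), which both fell, lay near the median gene. Leaving out dim probe sets removed no member.

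Other gene groups of the same organelle were counted in the same fit. The first 2 groups below were taken by gene symbol alone, and membership of the enzyme was not checked. They include Ndufa4, Ndufs6-ps1 and Cox6c-ps1, none of which passed. Among genes with symbols of complex I subunits, which feed electrons to coenzyme Q beside complex II, 14 of 34 fell, 0 rose and the median difference was -0.17. Among genes with symbols of cytochrome oxidase subunits, which take electrons from cytochrome c, 5 of 16 fell and 0 rose. Their median was -0.13, with the muscle isoform Cox8b lowest at -0.83. In coenzyme Q synthesis 4 of 11 fell and 1 rose, with a median of -0.06. Coq9, a lipid-binding factor of that pathway, fell by 0.39, and Coq10b, a coenzyme Q chaperone, rose by 0.27.

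The tricarboxylic acid cycle without succinate dehydrogenase had a median of -0.06, and 1 of its 11 enzymes, Idh2, fell (by 0.32) and 0 rose. The carriers that bring ADP and phosphate to the ATP synthase and move metabolites through the mitochondrial membranes had a median of 0.05, and 0 of 6 passed. Of 7 genes of the cristae organising MICOS system and its partners 1 fell, Chchd6 by 0.34, and the median was -0.07. Of 5 further assembly factors of complex III and the ATP synthase 1 fell, Fmc1, which acts with Atpaf2, by 0.45 (adjusted p = 0.017), and the median was 0.06. In 2 of these 5 every hCT1 sample lay above every control without passing, Ttc19, a complex III factor (difference 0.16, adjusted p = 0.102), and Tmem70, an ATP synthase factor (0.08, adjusted p = 0.347), while Lyrm7, which escorts the Rieske protein, differed by -0.18 (adjusted p = 0.0729) with every hCT1 sample below. The vacuolar ATPase, the related rotary pump of acid organelles, had a median of 0.03, with 1 of 21 genes lower. Differences between these lists and the 38 members were not tested.

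**Figure D5:**
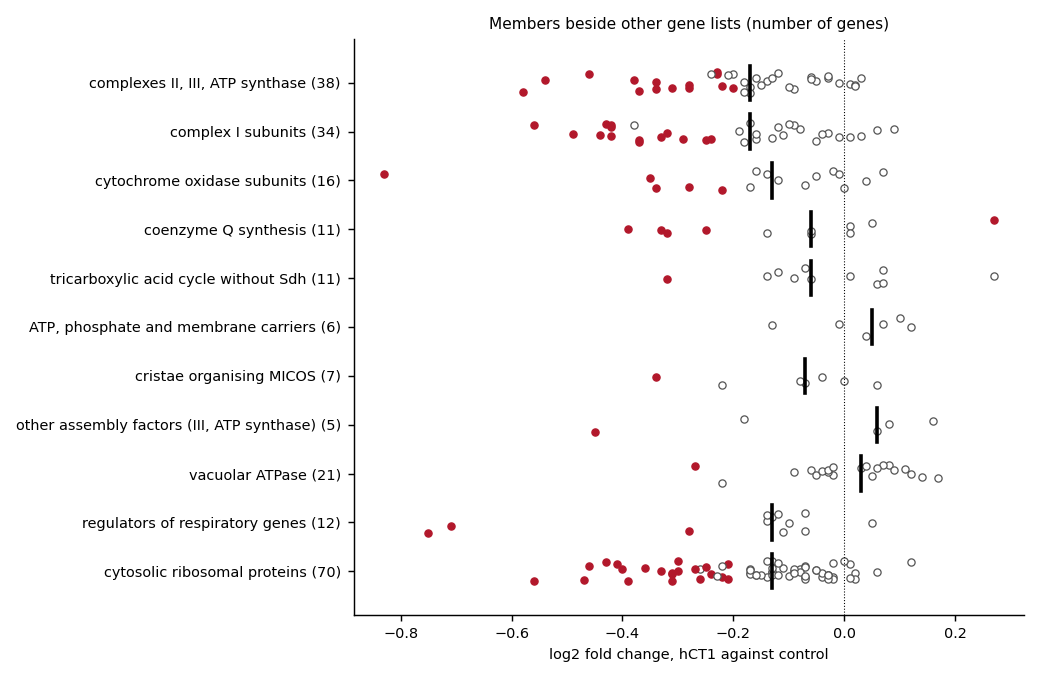
Difference in log2 RMA value, hCT1 minus control (n = 3 per group), of each gene in the 38 members and in 10 other gene lists, with the number of genes in brackets; filled points passed at an adjusted p under 0.05, open points did not, black bars are medians, and vertical scatter within a row has no meaning. Medians are -0.17 for the members and for complex I, -0.13 for cytochrome oxidase and 0.03 for the vacuolar ATPase.

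Of 12 transcriptional regulators of respiratory genes 3 fell and 0 rose. Ppargc1a, the coactivator PGC-1α, fell by 0.75 (SE 0.07, adjusted p = 0.00017), Perm1, a muscle regulator of the same network, by 0.71 (SE 0.05, adjusted p = 4.7e-05) and Ppara, the fatty acid receptor, by 0.28 (SE 0.07, adjusted p = 0.025). The probe sets of Ppargc1a, Perm1 and Ppara lay at signal percentiles 83.4, 48.3 and 75, where the median over all genes was 61.2. The part of these regulators in the differences of the members was not tested.

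Other large groups moved alongside the members. Of 13 cardiomyocyte markers 5 fell (Tnni3, Myl2, Myh6, Tnnc1 and Ttn) and 0 rose, and their mean level was 11.07 to 11.10 in the controls and 10.87 to 10.92 with hCT1. All 13 were bright, at percentiles of signal from 81.2 upwards. Of 9 fibroblast markers 0 passed, with a mean level of 9.04 to 9.09 in the controls and 9.0 to 9.06 with hCT1. Of 5 smooth muscle markers 3 fell and their mean was 9.96 to 10.00 against 9.77 to 9.81, of 7 endothelial markers 1 fell (7.32 to 7.49 against 7.35 to 7.40), and of 9 leukocyte markers 1 rose (4.76 to 4.83 against 4.72 to 4.84). Of 70 cytosolic ribosomal protein genes, a list added after the values were seen, 21 fell and 0 rose, with a mean level of 10.81 to 10.85 in the controls and 10.65 to 10.68 with hCT1. RMA values have no true 0, so no marker could be called absent. The part of these groups in the differences of the members was not tested.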

How the data were processed

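RNA of 3 control and 3 hCT1 samples was labelled with biotin and hybridised to Affymetrix rat gene arrays, 1 array per sample. The deposited values are log2 signals per probe set, which the authors made with RMA in Affymetrix Expression Console (versions not given in the sources used here), so small differences rest on that normalization and on its summary over probes. Arrays give no read depth, and 3 samples per group limit the precision. No further normalization or filter was applied.

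Probe sets were named from the GEO platform annotation: 15310 had 1 symbol and were tested, 323 had several, 13582 were unnamed. All 38 members matched RefSeq by Entrez ID. The groups were compared with limma (version 3.58.1, run under R 4.3.3) on moderated t statistics (two-sided, Benjamini-Hochberg over the 15310 probe sets, threshold 0.05). The fit was run on simulated data with known changes as a check of the code, which says nothing on the calls of the members. An exact permutation test of 3 against 3 cannot go below 0.1 and was not used. Every member is named. Values per sample are given for each member that passed, for the member with the largest moderated t where a role group had none, for the c-ring genes, and for Sdhc and the second Atp5pd probe set, which were chosen after their values were seen. Members, lists and motifs were chosen with earlier results of these data known. Promoters came from RefSeq (GRCr8), and motifs were searched as plain letter patterns. Protein sequences were not used here. Alternatives covered the variance model, array weights, the replicate number as a block, dim probe sets, all 29215 probe sets, normalization and thresholds. They also covered the probe set per gene, a one-way test, and each sample left out. The methods of the study name one-way analysis of variance for comparing several groups, and name no test for the arrays.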

Additional observations from a re-analysis of the deposited data

How the results depend on the processing

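No alternative called a member higher, and no member that fell changed direction. The number of members that fell, 14 on the deposited values, was 23 with a trended and robust variance and 20 with array weights. It was 20 without probe sets under the 40th percentile, 20 at an adjusted p under 0.1 and 6 at an adjusted p under 0.01. When all 29215 probe sets were tested it was 6, after a further quantile normalization 11 and after median centring 10. By a one-way test it was 25 without adjustment and 10 with adjustment, and with 1 sample left out 6 to 12. The 25 included 13 of the 14, and the 10 by the adjusted one-way test included 6 of the 14. Equal sample numbers did not pair the samples (correlations of deviations -0.03, 0.05 and -0.28, no sample closest to its own number), and with the number as a replicate block 7 members fell, all of them among the 14. Over all probe sets tested the calls were 1506 lower and 762 higher. They were 1010 and 490 with the block and 563 and 296 at an adjusted p under 0.01. By the one-way test they were 2467 and 1483 without adjustment and 675 and 376 with it. They were 1897 and 975 with the trended variance, 2012 and 1097 with array weights, and 1935 and 844 without dim probe sets. At an adjusted p under 0.1 they were 2170 and 1265, after centring 1324 and 920, and with all 29215 probe sets 1315 and 658. Leaving out dim probe sets removed no member but lowered the number of probe sets tested, which is not given here. The 1935 lower calls were therefore a larger share of those tested than the same count would be in the main fit.

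ATP synthase subunits that fell, 7 on the deposited values, were 10 with the trended variance and by the one-way test without adjustment. They were 8 with array weights, without dim probe sets and at an adjusted p under 0.1. After quantile normalization they were 6, and after centring and by the adjusted one-way test 5. They were 4 with the block, with all probe sets and at an adjusted p under 0.01, and 4 to 5 with 1 sample left out. Complex II subunits, 2, were 3 with the trended variance, with array weights, without dim probe sets, at 0.1 and by the one-way test without adjustment. They were 1 with the block, with all probe sets, after centring, at an adjusted p under 0.01 and by the adjusted one-way test. With 1 sample left out they were 1 to 2. Complex III subunits, 2, were 5 with the trended variance, 4 with array weights, 1 with the block, 4 without dim probe sets, 0 with all probe sets, 0 at an adjusted p under 0.01, 4 at 0.1, 5 and 1 by the one-way test without and with adjustment, and 0 to 3 with 1 sample left out. Assembly factors, 3, were 4 with the trended variance and 5 with array weights, without dim probe sets and at 0.1. They were 6 and 2 by the one-way test without and with adjustment, and 2 after centring. They were 1 with the block, with all probe sets, after quantile normalization and at an adjusted p under 0.01. With 1 sample left out they were 1 to 2. The median difference, -0.174, was -0.14 after quantile normalization, -0.154 after centring and -0.184 to -0.158 with 1 sample left out. The cause of these moves was not tested.

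Only members that did not pass changed sign. With 1 sample left out, Atp5f1d ran from -0.01 to 0.032, Atp5mk from -0.069 to 0.042, Atp5pb from -0.074 to 0.002, Cycs from -0.10 to 0.025, Sdhaf2 from -0.027 to 0.093, Uqcrb from -0.032 to 0.063 and Uqcrc2 from -0.06 to 0.008. Atp5mk was 0.01 after quantile normalization, 0.013 after centring, 0.024 as the mean of its probe sets and 0.055 on the probe set with the smallest adjusted p. Sdhaf3 was 0.009 after quantile normalization. Uqcrb was -0.003 as the mean of its probe sets and -0.028 on the probe set with the smallest adjusted p. In all, 571 of the recomputed values kept direction and side of the threshold, 83 kept direction but no longer passed, 48 passed where they had not, and 20 changed sign.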

Other observations

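Among the control samples, replicate 3 was the lowest control in 19 of the 38 members (50%) and the highest in 16 (42.1%). Over all 14506 genes it was the lowest control in 40.9% and the highest in 32.6%. It was the lowest control for Uqcc6, Uqcrq and Uqcrfs1 and the highest for Atp5f1a, Sdha and Atp5mc3.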
